A study of Mus musculus with 6 samples.

Results

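Glycogen phosphorylases and glycogen enzymes are described here as 7 genes of the 15599 that had a read in any library of the deposited table: the phosphorylase genes Pygm, Pygl and Pygb, the synthesis genes Gys1, Gbe1 and Ugp2, and the phosphorylase kinase gene Phkb. They were taken by gene symbol, and all 7 were among the 12008 that passed the filter on low values. They were proposed with the genotype values of these same libraries known, so their levels and differences are given as a description, with no test. The RNA came from long-term blood stem cells (LT-HSC) sorted from the bone marrow of C57BL/6 mice. The sort took lineage-negative, Sca-1 and Kit positive cells that lacked CD34, CD48 and Flk2 and carried CD150. There were 3 libraries from Itpkb-/- mice, whose allele was induced with the mutagen ENU and is labelled Ms T-less, and 3 from wild-type litter mates. A library pooled 4 age-matched mice and at least 10000 sorted cells, so single animals cannot be told apart. The labels name no tissue-specific driver, so effects of the allele in other cells of the mice are not separated.

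Glycogen is a branched store of glucose. Glycogen phosphorylase removes its outer glucose units as glucose 1-phosphate, the first step of breakdown. Mammals make this enzyme from separate genes, named for muscle (Pygm), liver (Pygl) and brain (Pygb), and the forms differ in how strongly AMP, glucose and phosphorylation control them. Phosphorylase kinase, an enzyme of alpha, beta, gamma and delta subunits whose delta subunit is calmodulin, switches phosphorylase on and responds to calcium. In the opposite direction, UDP-glucose pyrophosphorylase (Ugp2) makes the activated sugar, glycogen synthase (Gys1) adds it to the chain, and the branching enzyme (Gbe1) makes the branches. Itpkb encodes inositol-trisphosphate 3-kinase B, which phosphorylates inositol trisphosphate, the messenger that releases calcium from internal stores.

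The phosphorylase genes are paralogs, so their sequences are shown first, because they bear on how well reads can be assigned to each gene. In GENCODE M21 (build mm10) the coding sequences hold 842 codons in Pygm, 850 in Pygl and 843 in Pygb, and 75.3% of aligned bases are identical between Pygm and Pygl, 77.3% between Pygm and Pygb and 74.9% between Pygl and Pygb. The stretch of 60 bases, in whole codons, that is most alike in all 3 genes is coding bases 853 to 912 in each. It crosses the junction of exons 7 and 8, and is given 5′ to 3′ on the coding strand, with the 5 positions at which the genes differ in capitals.
Pygm (chr19:6388347-6388793, plus strand): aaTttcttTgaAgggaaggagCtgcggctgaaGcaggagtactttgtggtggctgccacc
Pygl (chr12:70201932-70206364, minus strand): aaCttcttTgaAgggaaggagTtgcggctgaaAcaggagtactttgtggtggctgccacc
Pygb (chr2:150814001-150815042, plus strand): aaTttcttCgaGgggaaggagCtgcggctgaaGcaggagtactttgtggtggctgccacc
The coordinates span the intron between the exons. In this stretch Pygl differs from Pygm at 3 bases and Pygb from Pygm at 2. The longest run of identical coding bases between Pygm and Pygb was 62, against 29 between Pygm and Pygl. The run of 62 starts at coding base 865 in both genes, inside this stretch, and goes on past its end. Of the 2825 windows of 50 bases in the Pygm transcript, 13 (0.46%) also occur in a transcript of another gene, and that gene is Pygb. Of the 2776 windows of Pygl 36 also occur in Gm47451, of the 2634 of Ugp2 29 occur in Gm12043, and Gbe1 and Phkb share none. No read length is stated in the labels, so the share of reads that could be placed in either gene is not known.

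Itpkb itself was at 10.2, 13.99 and 18.2 normalized CPM in Itpkb-/- LT-HSC, against 22.1, 23.6 and 25.1 in wild-type LT-HSC. Normalized CPM are the deposited values, gene reads scaled per library to about the usual CPM scale. The libraries held 4024203 to 7470329 reads, and 3 reads, taken as the detection floor for counting error only, equal 0.393 to 0.746 normalized CPM. All 10 listed LT-HSC markers were detected, with a summed level of 1696 to 2273 in Itpkb-/- and 2909 to 3535 in wild-type libraries. Of the 10, 6 fell (limma, adjusted p at or below 0.15), beside 3.24% of all genes tested called lower. The summed granulocyte markers (18 of 19 listed symbols in the table) ran from 1022 to 19372 in Itpkb-/- and from 775 to 4059 in wild-type libraries, with the highest value in Itpkb-/- library 2, and the largest marker was Mpo, myeloperoxidase. Of 11 tested megakaryocyte and platelet markers 5 rose, beside 5.5% of all genes called in either direction. Their sums were 1627 to 2760 in Itpkb-/- against 1217 to 1318 in wild-type libraries. None of 18 tested granulocyte markers was called, and 1 of 13 erythroid markers rose. The erythroid sums, 182 to 722 against 250 to 802, and the lymphocyte sums, 39.3 to 50.3 against 35.2 to 50.5, overlapped, and the largest lymphocyte marker was Cd79b at a mean of 30.9, while Pax5 and Cd3g, which define B and T cells, had no read.

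Pygm, the muscle-type phosphorylase, was the member whose level differed most between the genotypes. It was at 5.45, 2.33 and 4.32 normalized CPM in Itpkb-/- LT-HSC, against 28.1, 24.4 and 26.8 in wild-type LT-HSC. The highest Itpkb-/- library lay far below the lowest wild-type library. The reads behind these values numbered 25, 15 and 33 in Itpkb-/- and 113, 163 and 144 in wild-type LT-HSC. Mean levels were 4.03 ± 1.58 and 26.4 ± 1.90 (SD, n = 3 each), so the Itpkb-/- level was 15.3% of the wild-type level, a 6.55-fold difference. On the log2(normalized CPM + 1) scale, on which differences of low genes come out too small, the difference was -2.50 (SE 0.29), the 7th lowest of the 12008 genes tested. Leaving out any 1 library kept it between -2.70 and -2.22. In RNA from a sorted pool, fewer cells of a type and less RNA per cell cannot be told apart. The fall in LT-HSC markers and the rise in megakaryocyte markers given above moved with the same contrast, and their part in the Pygm difference was not tested.

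**Figure D1:**
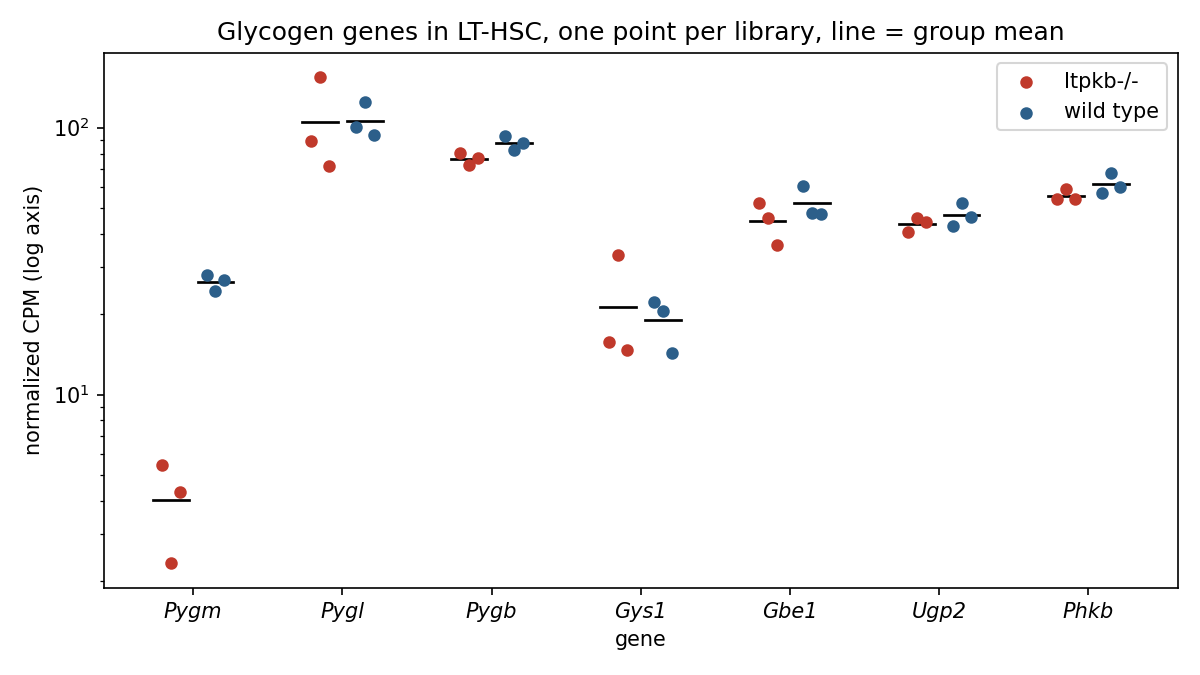
Normalized CPM (log axis) of the 7 genes, with a point for each library, Itpkb-/- in red and wild type in blue, and a black line at each group mean. Pygm is the gene whose groups lie far apart, at 2.33 to 5.45 against 24.4 to 28.1, while the groups of Pygb separate narrowly and the others overlap.

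Pygm lies at chr19:6384399-6398459 on the plus strand, and the annotation shows no gene that overlaps it. Rasgrp2, which encodes an activator of Rap and Ras GTPases, begins 881 bases after its end on the same strand. It was at 21.6, 48.3 and 38.4 normalized CPM in Itpkb-/- LT-HSC, against 26.6, 26.9 and 22.2 in wild-type LT-HSC, which overlap. Sf1, a splicing factor gene 6369 bases before Pygm, was at 252.2 to 287.4 against 236.0 to 251.8. Its groups narrowly did not overlap, as for 21.3% of all genes, with a log2 difference of 0.14 (limma, adjusted p = 0.617). For both neighbours the Itpkb-/- mean was above the wild-type mean. Both were looked at after the values of Pygm were seen.

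Because Pygm is known from skeletal muscle, muscle markers were read in the same libraries. Of 15 markers 7 had no read in any library: Mb, Des, Actn2, Tnnc2, Myh1, Myh4 and Myl1. The summed level of all 15 was 8.06 to 11.5 normalized CPM in Itpkb-/- and 4.97 to 10.5 in wild-type libraries, below the level of Pygm alone in each wild-type library and above it in each Itpkb-/- library. The marker with the highest mean was Ttn, titin, at 4.01 over the 6 libraries.

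Pygl, the liver-type phosphorylase, was at 88.9, 154 and 71.7 normalized CPM in Itpkb-/- LT-HSC, against 100.2, 124 and 93.8 in wild-type LT-HSC. The Itpkb-/- libraries held both the highest and the lowest values. The means were 105.0 ± 43.7 and 106 ± 16.2 (SD, n = 3 each), and the log2 difference was -0.08 (SE 0.24). Library 2 was the highest of its genotype in both groups. Without Itpkb-/- library 2, whose granulocyte markers summed to 19372, the log2 difference was -0.40, and without Itpkb-/- library 3 it was 0.15. Its direction therefore depended on single libraries. Pygl (chr12:70190811-70231488, minus strand) overlaps the non-coding gene F730035M05Rik, which lies on the opposite strand and had no read in the 6 libraries.

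Pygb, the brain-type phosphorylase (chr2:150786735-150831758, plus strand), was the steadiest of the phosphorylase genes. It was at 80.2, 72.3 and 76.8 normalized CPM in Itpkb-/- LT-HSC, against 93.0, 82.6 and 87.5 in wild-type LT-HSC. The groups did not overlap, but the gap between the nearest libraries was small. The means were 76.4 ± 3.96 and 87.7 ± 5.18 (SD, n = 3 each), and the log2 difference was -0.20 (SE 0.13).

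Levels of different genes were compared per kilobase of exon (the union of annotated exons). In wild-type libraries Pygb stood at 18.2 ± 1.08, Pygl at 15.4 ± 2.35 and Pygm at 8.21 ± 0.590 normalized CPM per kilobase (SD, n = 3 each). In Itpkb-/- libraries the same quantities were 15.9 ± 0.824, 15.2 ± 6.34 and 1.25 ± 0.490. Pygm therefore made up 20.5%, 17.7% and 20.8% of the summed phosphorylase level in wild-type libraries 1, 2 and 3, and 5.42%, 1.90% and 4.85% in Itpkb-/- libraries. The share of Pygb was 43.6% ± 3.01 in wild-type and 50.1% ± 9.54 in Itpkb-/- libraries, and that of Pygl was 36.7% ± 4.71 and 45.8% ± 11.3. The summed level of the phosphorylase genes was 42.6, 42.8 and 40.1 normalized CPM per kilobase in wild-type and 31.2, 38.2 and 27.7 in Itpkb-/- libraries, with no overlap. With the length of the longest transcript in place of the exon union, which for Pygl is 3150 in place of 6895 bases, Pygl stood above Pygb (33.7 against 22.4 in wild-type libraries), the Pygm share was 14.1% ± 1.62 against 2.79% ± 1.39, and the summed levels overlapped, at 61.5 to 69.1 against 43.9 to 68.3. The order of Pygl and Pygb thus rests on the gene model. Each length is the same in both genotypes. Its choice therefore sets the size of the Pygm shares, but is no test of the lower share in Itpkb-/- libraries.

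**Figure D2:**
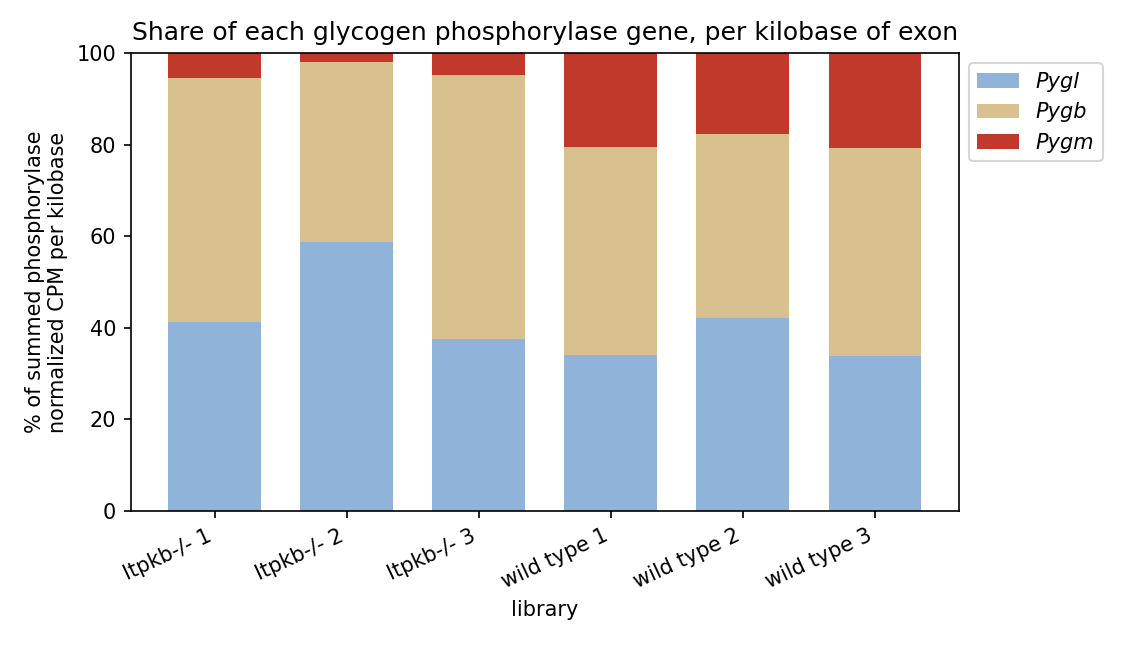
Share of each phosphorylase gene in the summed normalized CPM per kilobase of exon (%), stacked for each of the 6 libraries. The Pygm share is 17.7% to 20.8% in the wild-type libraries and 1.90% to 5.42% in the Itpkb-/- libraries, and the Pygl share is highest in Itpkb-/- library 2.

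Phkb encodes the beta subunit of phosphorylase kinase, a regulatory subunit (chr8:85840959-86061376, plus strand). It was at 54.0, 58.7 and 54.3 normalized CPM in Itpkb-/- LT-HSC, against 56.7, 67.6 and 59.8 in wild-type LT-HSC. The groups overlapped, with means of 55.7 ± 2.66 and 61.3 ± 5.60 (SD, n = 3 each) and a log2 difference of -0.13 (SE 0.15, or 0.13 with the replicate block). Phkb was lower in Itpkb-/- LT-HSC in all 3 same-numbered pairs of libraries.

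Among the synthesis genes, Ugp2, which makes UDP-glucose (chr11:21321138-21371201, minus strand), was at 40.7, 46.0 and 44.3 normalized CPM in Itpkb-/- LT-HSC, against 42.8, 52.3 and 46.4 in wild-type LT-HSC, with a log2 difference of -0.10 (SE 0.16). The groups overlapped. Gbe1, the branching enzyme (chr16:70313949-70569716, plus strand), was at 52.3, 45.8 and 36.3 in Itpkb-/- LT-HSC, against 60.7, 48.0 and 47.7 in wild-type LT-HSC, with a log2 difference of -0.22 (SE 0.18). These groups overlapped as well. Both genes were lower in Itpkb-/- LT-HSC in all 3 same-numbered pairs, and with the replicate block the SE was 0.15 for Ugp2 and 0.15 for Gbe1. The same held in all 3 pairs for Pygm and Pygb, in 2 of 3 pairs for Pygl and in 1 of 3 for Gys1. The share of all genes lower in every pair was not counted, so nothing is read from these pairs.

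Gys1, glycogen synthase of muscle and most other tissues (chr7:45434844-45456619, plus strand), was at 15.7, 33.4 and 14.7 normalized CPM in Itpkb-/- LT-HSC, against 22.1, 20.5 and 14.3 in wild-type LT-HSC. Itpkb-/- library 2 stood above the other 5 libraries. The log2 difference was 0.08 (SE 0.31) with it and -0.28 without it. Gys1 overlaps Ruvbl2, a gene for a helicase of chromatin complexes on the opposite strand, and 241 of the 3629 windows of 50 bases in the Gys1 transcript (6.64%) also lie in a Ruvbl2 transcript. The kit named in the labels does not mark strand, so reads of the shared part cannot be told apart. Ruvbl2 was at 111, 210 and 139 normalized CPM in Itpkb-/- LT-HSC, against 109, 119 and 138 in wild-type LT-HSC, also highest in Itpkb-/- library 2. The part of Ruvbl2 reads or of granulocyte RNA in the Gys1 value was not tested.

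**Figure D3:**
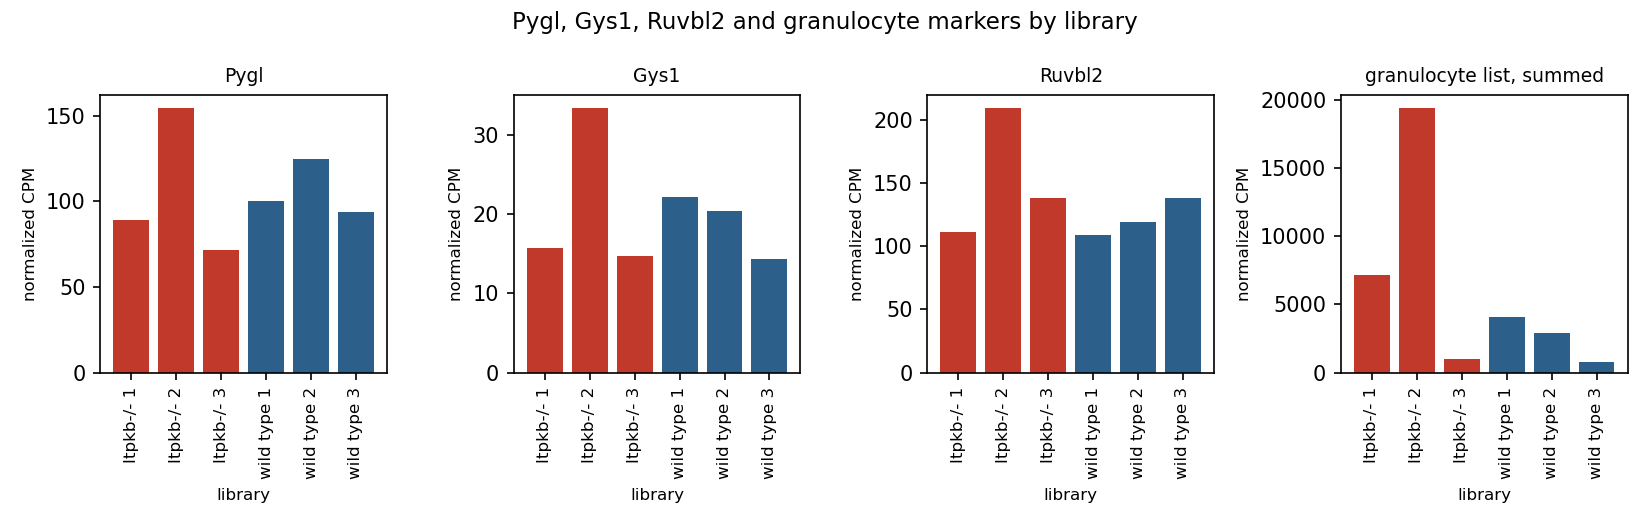
Normalized CPM of Pygl, Gys1 and Ruvbl2 and the summed granulocyte markers in each library (bars from 0, Itpkb-/- in red, wild type in blue, each panel on its own scale). All 4 quantities are highest in Itpkb-/- library 2, at 154, 33.4, 210 and 19372, and for the other libraries their orders differ.

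The 7 genes lie on 7 different chromosomes. In the order of levels per kilobase in wild-type libraries, Pygb, Pygl and Ugp2 (18.2, 15.4 and 15.4) came first, followed by Gbe1 (9.74 ± 1.39), Phkb (8.27 ± 0.755), Pygm (8.21) and Gys1 (3.96 ± 0.858). The libraries of Pygb and Pygl overlapped, as did those of Pygl and Ugp2, of Gbe1 and Phkb, and of Phkb and Pygm. Ugp2 lay above Gbe1, and Pygm above Gys1, in all 3 libraries without overlap. In Itpkb-/- libraries Pygm was last (1.25) and Gys1 next above it (4.44 ± 2.20). The median log2 difference of the 7 genes was -0.13, beside 0.00 over all genes tested, and 6 of the 7 were negative, beside 49.8% of all genes. The call rule (limma, adjusted p at or below 0.15, as in the series design text) took 1 of the 7, Pygm, beside 5.5% of all 12008 genes tested. The groups did not overlap for 2 of the 7, Pygm and Pygb, beside 21.3% of all genes. Since the genes were chosen with this contrast known, nothing is read from these counts. The study's own limits also ask for an average log2 CPM above 4. Recomputed here with edgeR from the recovered reads, Pygm had 3.94, just under that limit, which the other 6 passed. The study's own average may differ, so whether Pygm met its limit is not known.

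Other genes of the pathway were read from lists of 58 genes in all, of which 46 were tested. In the list of other synthesis and breakdown enzymes, none of 9 tested genes passed by limma or edgeR. Over all genes, limma called 5.5% and edgeR 692 of 11486. Before adjustment 1 of the 9 reached p under 0.05 (limma), beside at least 1857 of the 12008 genes tested. The list median was a log2 difference of 0.01. Gaa, the lysosomal acid glucosidase that degrades glycogen, was at 122, 105 and 118 normalized CPM in Itpkb-/- LT-HSC, against 144, 140.3 and 139 in wild-type LT-HSC. Its groups did not overlap, with a log2 difference of -0.30 (SE 0.13, limma, adjusted p = 0.286). With the replicate number as a block, Gaa alone of the 9 passed (limma, adjusted p = 0.105), beside 18.1% of all genes. Gyg, glycogenin, which primes new chains, had a log2 difference of -0.22 (adjusted p = 0.547). Phka2, the alpha subunit of phosphorylase kinase best known from liver, had a difference of 0.01, and Phka1, its muscle counterpart, of 0.41 (limma, adjusted p = 0.990 and 0.566). Phka1 and Phka2 were chosen after their values were seen.

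Of 20 tested regulators of glycogen metabolism 1 fell and none rose, beside 5.5% of all genes called in either direction and 3.24% called lower, with a median log2 difference of 0.05. The gene that fell was Prkag2, a gamma subunit of AMP-activated protein kinase, an energy sensor that binds glycogen through another subunit. It was at 38.1, 27.0 and 44.0 normalized CPM in Itpkb-/- LT-HSC, against 60.4, 71.3 and 54.9 in wild-type LT-HSC, and the groups did not overlap. The means were 36.4 ± 8.63 and 62.2 ± 8.33 (SD, n = 3 each), and the log2 difference was -0.78 (SE 0.20, limma, adjusted p = 0.0952). The call was lost without Itpkb-/- library 2 (adjusted p = 0.237) and without wild-type library 1, 2 or 3 (0.198, 0.243 and 0.240), and the alternatives gave 0.0185 to 0.243.

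Ppp1ca, a catalytic subunit of the phosphatase that reverses the phosphorylation of phosphorylase and synthase, was at 405, 399 and 397 normalized CPM against 335, 318 and 299, with no overlap (log2 difference 0.34, SE 0.11, limma, adjusted p = 0.178). Of the 7 listed subunits that bring this phosphatase to glycogen, 4 passed the filter on low values. Among them Ppp1r3b was at 21.6, 17.2 and 18.3 against 29.6, 26.3 and 28.5 (log2 difference -0.54, SE 0.19, limma, adjusted p = 0.204). Nhlrc1, which encodes malin, a ubiquitin ligase of glycogen quality control, was at 2.83, 1.40 and 1.18 against 4.97, 3.74 and 4.28 (log2 difference -0.97, SE 0.36, limma, adjusted p = 0.219). It rests on 9 to 25 reads a library. These 3 genes did not pass, and Ppp1r3b and Nhlrc1 were chosen after their values were seen. With the replicate block 7 regulators passed, beside 18.1% of all genes: Ppp1ca and Prkab1 rose, and Prkag2, Ppp1r3b, Nhlrc1, Prkacb and Prkaa2 fell.

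None of 8 tested genes for the entry and exit of glucose 6-phosphate passed by limma or edgeR. Over all genes, limma called 5.5% and edgeR 692 of 11486. Before adjustment 1 of the 8 reached p under 0.05 (limma), beside at least 1857 of the 12008 genes tested. The list median was a log2 difference of 0.20. Slc2a1, the glucose transporter GLUT1, was at 83.6, 52.5 and 62.5 normalized CPM in Itpkb-/- LT-HSC, against 87.0, 79.1 and 94.2 in wild-type LT-HSC (log2 difference -0.41, SE 0.18, limma, adjusted p = 0.307). It alone of the 8 passed with the replicate block (0.0844), beside 18.1% of all genes. It also passed without Itpkb-/- library 1 (0.105). G6pc3, the widely expressed glucose 6-phosphatase, had a log2 difference of 0.23 (adjusted p = 0.484). In the list of UDP-glucose use, none of 9 genes passed (limma or edgeR) or reached p under 0.05 before adjustment, beside the shares above. The median log2 difference was 0.11. Ugcg, which makes glucosylceramide from UDP-glucose, had a log2 difference of 0.38 (limma, adjusted p = 0.349). It alone of the 9 passed with the block (0.0636), again beside 18.1% of all genes. Galk1, galactokinase, had a difference of 0.35 (limma, adjusted p = 0.379).

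**Figure D4:**
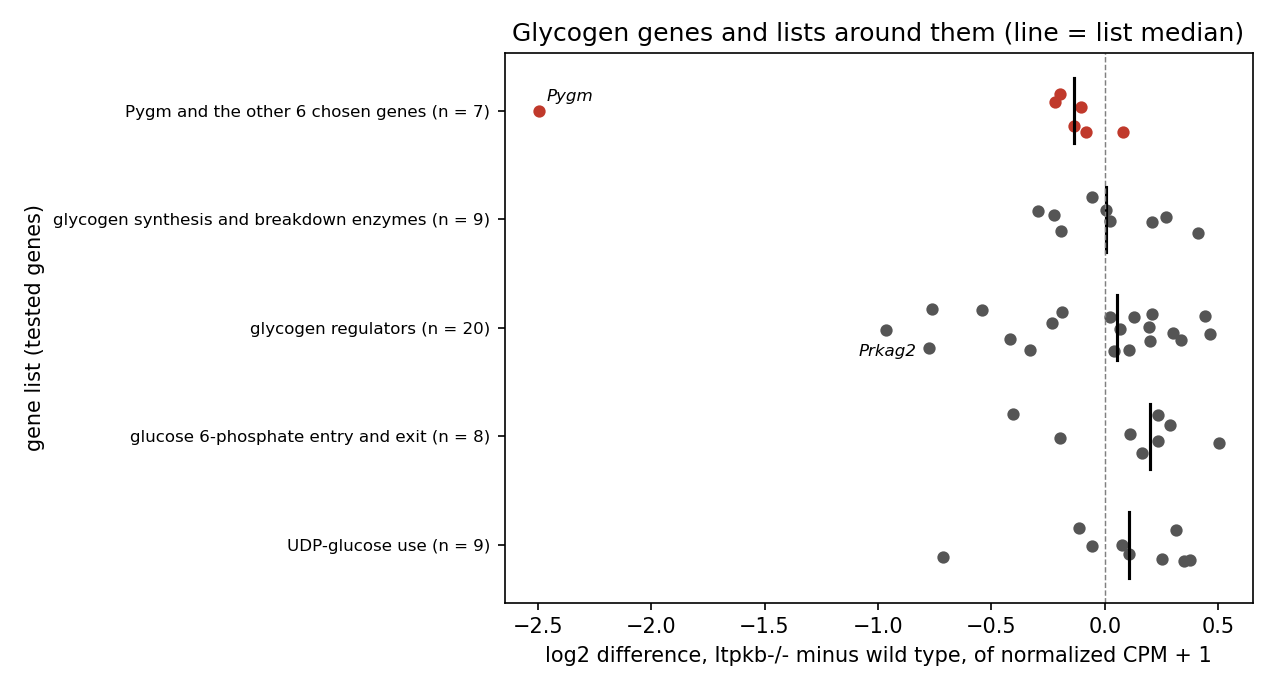
Log2 difference (Itpkb-/- minus wild type, log2 of normalized CPM + 1) of each tested gene, by list, with a black line at each list median. Pygm lies at -2.50, apart from the other 6 chosen genes and from the 46 tested genes of the lists, whose lowest value is -0.97 (Nhlrc1).

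Of the 58 listed genes, 7 had no read in any library: Ppp1r3a, the muscle glycogen-targeting subunit, Ppp1r3c, Prkag3, a muscle subunit of AMP-activated protein kinase, Slc2a4, the insulin-responsive glucose transporter, Hkdc1, and G6pc and G6pc2, glucose 6-phosphatases best known from liver and pancreatic islet. A count of 0 allows up to 0.393 to 0.746 normalized CPM in a library. Gys2, the liver glycogen synthase, Phkg1, the muscle catalytic subunit of phosphorylase kinase, and Ppp1r3g had at most 3 reads in each library. Phkg2, the other catalytic subunit, was detected at 18.8 to 29.8 normalized CPM. Phka1, the muscle alpha subunit, was detected at 5.53 to 10.2 in wild-type libraries. Pygm was thus read in wild-type LT-HSC beside Phka1, Phkg2 and Gys1, while Phkg1 and Ppp1r3a stayed at or under the floor.

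The 3 genes whose pattern over the 6 libraries was most like that of each phosphorylase gene were named by Pearson correlation of log2(normalized CPM + 1) among all genes tested. For Pygm these were Klf12, a Kruppel-like transcription factor (r = 0.998), Nwd1 (0.996) and Plxna4, a semaphorin receptor (0.995). All had lower values in Itpkb-/- libraries, at means of 10.03 against 37.1, 89.8 against 148 and 9.82 against 30.8 normalized CPM, so they share the genotype contrast and the low value of Itpkb-/- library 2. For Pygl they were Plxnd1 (0.982), Gpr160 (0.979) and Gm13826 (0.972), which were highest in Itpkb-/- library 2, at 34.8, 26.0 and 25.8. For Pygb they were Tmem143 (0.996), Klhl13 (0.996) and Elovl7 (0.994), each with a larger relative difference between genotypes than Pygb. Their means were 16.6 against 28.4, 2.94 against 7.47 and 16.0 against 29.3 normalized CPM. The points are the same 6 libraries, which share the genotype contrast and their depth, and the correlations are given as a description.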

How the data were processed

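The deposited table holds a signal, gene reads that the authors divided by 1 factor per library, on the scale of CPM. Per the submitters' processing notes, CASAVA 1.8.2, cutadapt, TopHat2 2.0.8b, Partek and edgeR were used with build mm10, whereas the series design text names TopHat 1.4.1 with Bowtie2. All values (100%) lay within 0.01 of a whole number of reads. The main test was limma 3.58.1 (R 4.3.3) on log2(value + 1), with the trend option of eBayes. Genes needed 1 normalized CPM or more in 3 or more of the 6 libraries, and p-values were adjusted by Benjamini-Hochberg. On the recovered reads, the quasi-likelihood test of edgeR 4.0.16 took 692 of 11486 genes. The script was tested on simulated data. Alternatives were the pseudocount, the filter, the size factors, the replicate block and leaving out each library. Same-numbered libraries deviated together (r = 0.296, 0.268 and 0.284, others -0.0475 or below), so the title numbers were taken to pair the libraries. Values were centred on genotype means, which pushes the other correlations below 0 once these are positive, so the negative ones add nothing. With 3 libraries per genotype, a chance match of the numbers is not excluded. The main fit, as designed, has no replicate block, which enters only as an alternative. What the numbers mark is not stated in the labels. Coding sequences were aligned with Biopython 1.88. Named genes were the 7 chosen genes, those called and the 2 with the smallest p in each list, and the 3 most alike per phosphorylase, and others are said to be chosen later. Members and lists were chosen with earlier results of these data known. Some list members are left out of the text.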

Additional observations from a re-analysis of the deposited data

How the results depend on the processing

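The log2 difference of Pygm, a description, ran from -2.73 to -2.22 over the 13 alternatives. The count over all genes, 661, became 2176 with the replicate block and ran from 74 to 837 without 1 library (74 without wild-type library 3, 266 without Itpkb-/- library 2, 299 and 297 without wild-type libraries 1 and 2). With the replicate block 7 of 20 tested regulators and 1 of 9 synthesis and breakdown enzymes were called. So were 1 of 8 glucose 6-phosphate genes and 1 of 9 UDP-glucose genes, beside 18.1% of all genes. Without 1 library the counts called ran from 0 to 3 for regulators and from 0 to 1 for glucose 6-phosphate genes, and were 0 for the other lists. Of the 8 genes named from the pathway lists by rule, the block added Gaa, Ppp1ca, Slc2a1 and Ugcg and changed no other call. With the longest transcript as length, the shares of the phosphorylase level were 59.8% for Pygl and 37.4% for Pygb in Itpkb-/- libraries, and 14.1%, 51.4% and 34.5% for Pygm, Pygl and Pygb in wild-type libraries. Among the 7 chosen genes Pygm had the fewest reads in the Itpkb-/- libraries, 15 to 33 each.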
